A study of Mus musculus with 16 samples.

Results

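The contrast described here is the effect of diet on gene expression in the mouse left ventricle, taken over animals with and without an added drug. All 16 of the 16 libraries in the series entered it: 8 from mice on a high fat, high sucrose diet (HFHS) and 8 from mice on a low-fat control diet (CD), each diet made up of 4 untreated animals and 4 given ertugliflozin. The value reported for a gene is the mean of the 2 HFHS groups minus the mean of the 2 CD groups on a log2 scale, from 1 fit with a mean for each of the 4 groups. Of 53764 genes in the count table, 15841 had enough counts to be tested.

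The mice were male C57BL/6J, 8 weeks old when the diets began, and were killed after 4 months. Ertugliflozin, an inhibitor of SGLT2, the main glucose transporter of the renal tubule, was mixed into the food at 0.5 mg per g, so CD ertugliflozin and HFHS ertugliflozin differ from CD untreated and HFHS untreated by the drug alone. Each library is 1 mouse, and the 4 per group were picked by the submitters from a larger group as representative, so the errors below describe the spread among those mice. RNA came from powdered whole left ventricle: all cell types of the tissue are mixed, and in such samples fewer cells of a type cannot be told apart from less RNA per cell.

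A heart muscle cell draws most of its ATP from fatty acids, which CD36 and other carriers bring in, acyl-CoA synthetases activate, the carnitine shuttle moves into mitochondria and beta-oxidation cuts down to acetyl-CoA. Fatty acids are also ligands of the nuclear receptor PPARα, which with RXR and the coactivator PGC-1 switches on the genes of these same steps, so that a heart supplied with more lipid is known to transcribe more of the machinery that burns it. Glucose, lactate, ketone bodies and branched-chain amino acids compete for the same acetyl-CoA pool, and pyruvate dehydrogenase, held back by its kinases, is the gate between glycolysis and the mitochondrion.

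Library totals ran from 14637669 to 21452212 counts and the 10 most abundant genes held 11.4% to 13.1% of them. Cardiomyocyte markers such as Myh6, Myl2 and Tnni3 dominated every library, and summed to 121694 to 137528 CPM (counts relative to the TMM-adjusted library total) on CD and 113306 to 131604 on HFHS. Other tissue pieces were uneven. A list of 13 valve and cartilage markers summed to 20.0 to 238 CPM on CD and 22.2 to 70.2 on HFHS, with the highest values in CD untreated 2 (238) and CD untreated 3 (208). A list of 12 atrial markers summed to 1078 to 2458 CPM on CD, highest in CD untreated 1, and 964 to 1200 on HFHS. Macrophage markers (20 genes) summed to 493 to 724 CPM on CD and 446 to 576 on HFHS, and defining lymphocyte markers were mostly below the filter (3 of 17 T and NK cell markers tested). Without CD untreated 2 and 3 the count of genes past the threshold given below was 1412, and with the valve and atrial scores of each library as covariates it was 820.

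Diet moved many genes by small amounts. With edgeR's quasi-likelihood test and a Benjamini-Hochberg adjusted p below 0.05, 1837 of 15841 genes passed (11.6%): 1044 were higher on HFHS (6.59%) and 793 were lower (5.01%). These shares of all tested genes are the background for every list count below, and some lists lie near them. The median size of these changes was 0.22 on the log2 scale, with a median standard error of 0.05, and 1328 of them (72.3%) were under 1.25-fold. Changes of at least 1.5-fold numbered 79 rises and 88 falls, and of at least 2-fold 17 rises and 16 falls. For 279 genes (1.76%) the 8 HFHS values and the 8 CD values did not overlap, 152 with HFHS above (0.96%) and 127 with HFHS below (0.802%). With genes in 3 bins of equal size by level, the share past the threshold was 20.9% in the most abundant bin and 4.58% in the least abundant, where the median size of a passing change was 0.58 against 0.19. Upper-quartile scaling in place of TMM moved the split to 914 higher and 1021 lower, and the median of all genes from −0.01 to −0.02.

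**Figure D1:**
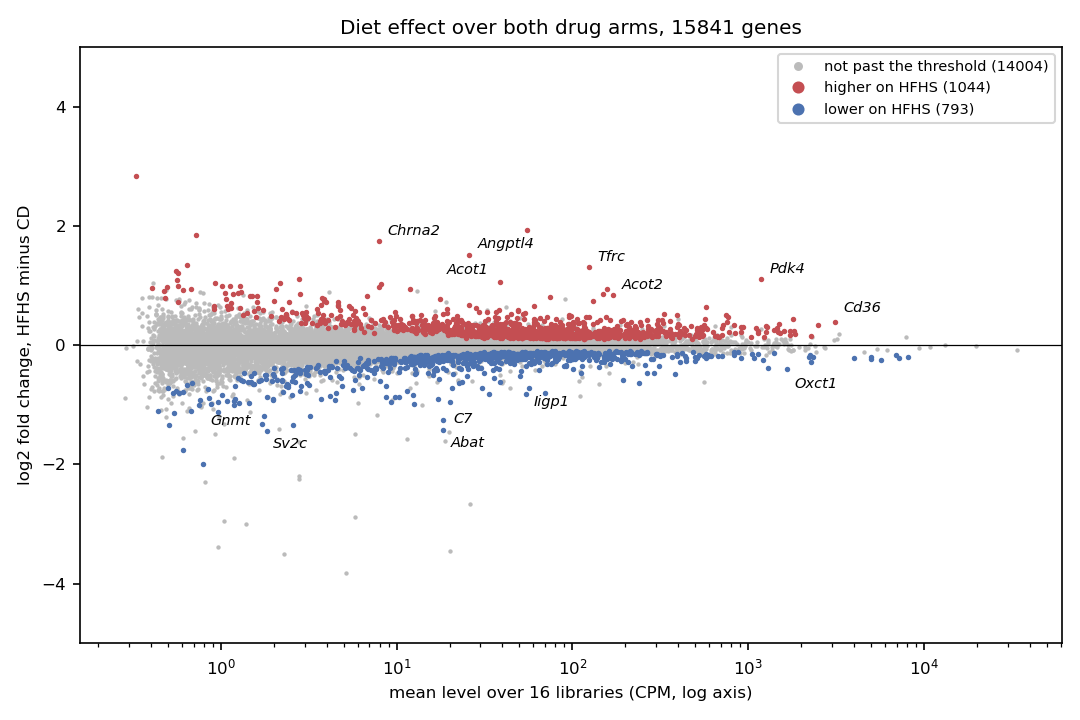
Each point is 1 of 15841 tested genes, placed by its mean level over 16 libraries (CPM, log axis) and its log2 fold change, HFHS minus CD; red points passed the threshold as higher on HFHS and blue points as lower. Of the 1837 genes past the threshold 72.3% changed by less than 1.25-fold, and most of the named genes are among the few farther out.

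The most even response was that of a list of PPAR target genes. Of its 36 members 31 were tested and 27 of these rose, with none lower. Their median was 0.35, against −0.01 over all tested genes and a rate of 6.59% higher. In 11 of the 31 the 2 diets did not overlap, where the rate over all tested genes was 1.76%. The 4 that did not pass were Ucp3 at 0.78 ± 0.30, and Txnip, Ehhadh and Cidec at 0.16, −0.09 and −1.88. The count stayed at 26 to 28 when any 1 library was left out. The gene for the receptor did not move with its targets: Ppara was at 48.5, 57.8 and 65.8 CPM (lowest, median and highest of 8 libraries) on CD and 40.7, 53.8 and 61.4 on HFHS, −0.11 ± 0.08 (log2 ± SE, edgeR adjusted p = 0.393), and the ranges overlapped almost wholly. Ppargc1a, which encodes PGC-1α, was at −0.19 ± 0.07 and did not pass either (edgeR adjusted p = 0.0921), though it did as lower without HFHS untreated 3 (−0.23, edgeR adjusted p = 0.0373) or without CD untreated 2 and 3 (−0.27, edgeR adjusted p = 0.0189). Of 20 genes for PPAR, ERR and PGC-1 regulators, 4 rose and none fell, among them the coactivator Ppargc1b (0.32 ± 0.09), the corepressor Ncor1 (0.20 ± 0.04) and the heterodimer partner Rxra (0.17 ± 0.04). Ppargc1b lost its call without HFHS ertugliflozin 1, and with valve and atrial scores as covariates Ppargc1b, Ncor1 and Rxra all lost theirs, at values of 0.37, 0.19 and 0.14.

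Uptake comes first in the pathway, and more of its genes rose than fell. Of 19 tested genes of fatty acid uptake and lipoprotein lipolysis, 6 rose (31.6%, against 6.59% over all tested genes), with a median of 0.07. Only 1 fell (5.26%), near the 5.01% over all tested genes. Cd36, the fatty acid translocase of the cell membrane, was at 2432, 2805 and 2887 CPM on CD and 3183, 3563 and 3829.9 on HFHS, and rose by 0.39 ± 0.04 (edgeR adjusted p = 4.89e-06). Every HFHS library lay above every CD library. Fabp3, the heart's cytosolic fatty acid binding protein, had 1065, 1121 and 1201 CPM on CD and 1272, 1400.2 and 1531 on HFHS, again without overlap, a rise of 0.33 ± 0.04 (edgeR adjusted p = 1.20e-05). A processed copy, Fabp3-ps1, holds 29.2% of the 50-base words of Fabp3, so some of its reads could be placed in either. Slc27a1, the transporter FATP1, rose by 0.33 ± 0.06, and Acsl1, the main acyl-CoA synthetase of the heart, by 0.23 ± 0.04. Lpl, which frees fatty acids from circulating lipoproteins at the capillary wall, went the other way, from 5576, 6217 and 6862 CPM on CD to 4487, 5274 and 5690.1 on HFHS, −0.24 ± 0.05 (edgeR adjusted p = 0.00451), with a narrow overlap. Angptl4, a secreted inhibitor of lipoprotein lipase, was spread widely on CD, with 3.89, 10.8 and 30.9 CPM against 21.0, 37.3 and 53.0 on HFHS. Its rise of 1.52 ± 0.34 passed (edgeR adjusted p = 0.014) but ended without CD untreated 2 and 3 (1.33) and with valve and atrial scores as covariates (1.58).

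Inside the mitochondrion 17 of 26 beta-oxidation genes rose (65.4%) and 2 fell (7.69%), with a median of 0.22. Each count was the same or higher by 1 when any library was left out. Cpt1a, one of the carnitine palmitoyltransferases that load acyl groups onto carnitine, was at 60.5, 65.6 and 82.2 CPM on CD and 80.8, 92.8 and 106 on HFHS, 0.44 ± 0.05 (edgeR adjusted p = 5.04e-05). A single CD library was above a single HFHS library. Slc25a20, which carries acylcarnitines across the inner membrane, rose by 0.36 ± 0.05. Decr1, the reductase needed for polyunsaturated fatty acids, showed the largest rise of the list, from 542, 602 and 721 CPM on CD to 773, 904 and 946 on HFHS, 0.51 ± 0.05 (edgeR adjusted p = 2.64e-06). Ech1, an isomerase for unsaturated chains, rose by 0.43 ± 0.04, and Etfdh, which passes electrons from the acyl-CoA dehydrogenases to ubiquinone, by 0.29 ± 0.03; neither overlapped between diets. Hadha and Hadhb encode the 2 chains of the trifunctional protein of long-chain oxidation. Hadha was at 2043, 2194 and 2385 CPM on CD and 2436, 2841 and 3099 on HFHS, 0.33 ± 0.04 (edgeR adjusted p = 4.91e-05), and Hadhb rose by 0.17 ± 0.03, a call that ended with valve and atrial scores as covariates. The 2 falls were Hsd17b10 (−0.23 ± 0.04), a dehydrogenase that also serves isoleucine breakdown and mitochondrial tRNA processing, and Echs1 (−0.18 ± 0.04), the short-chain enoyl-CoA hydratase. Hadhb and Echs1, like Acot6, Fitm1 and Aqp1 further on, fall outside the naming rule and were chosen after their values were seen.

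**Figure D2:**
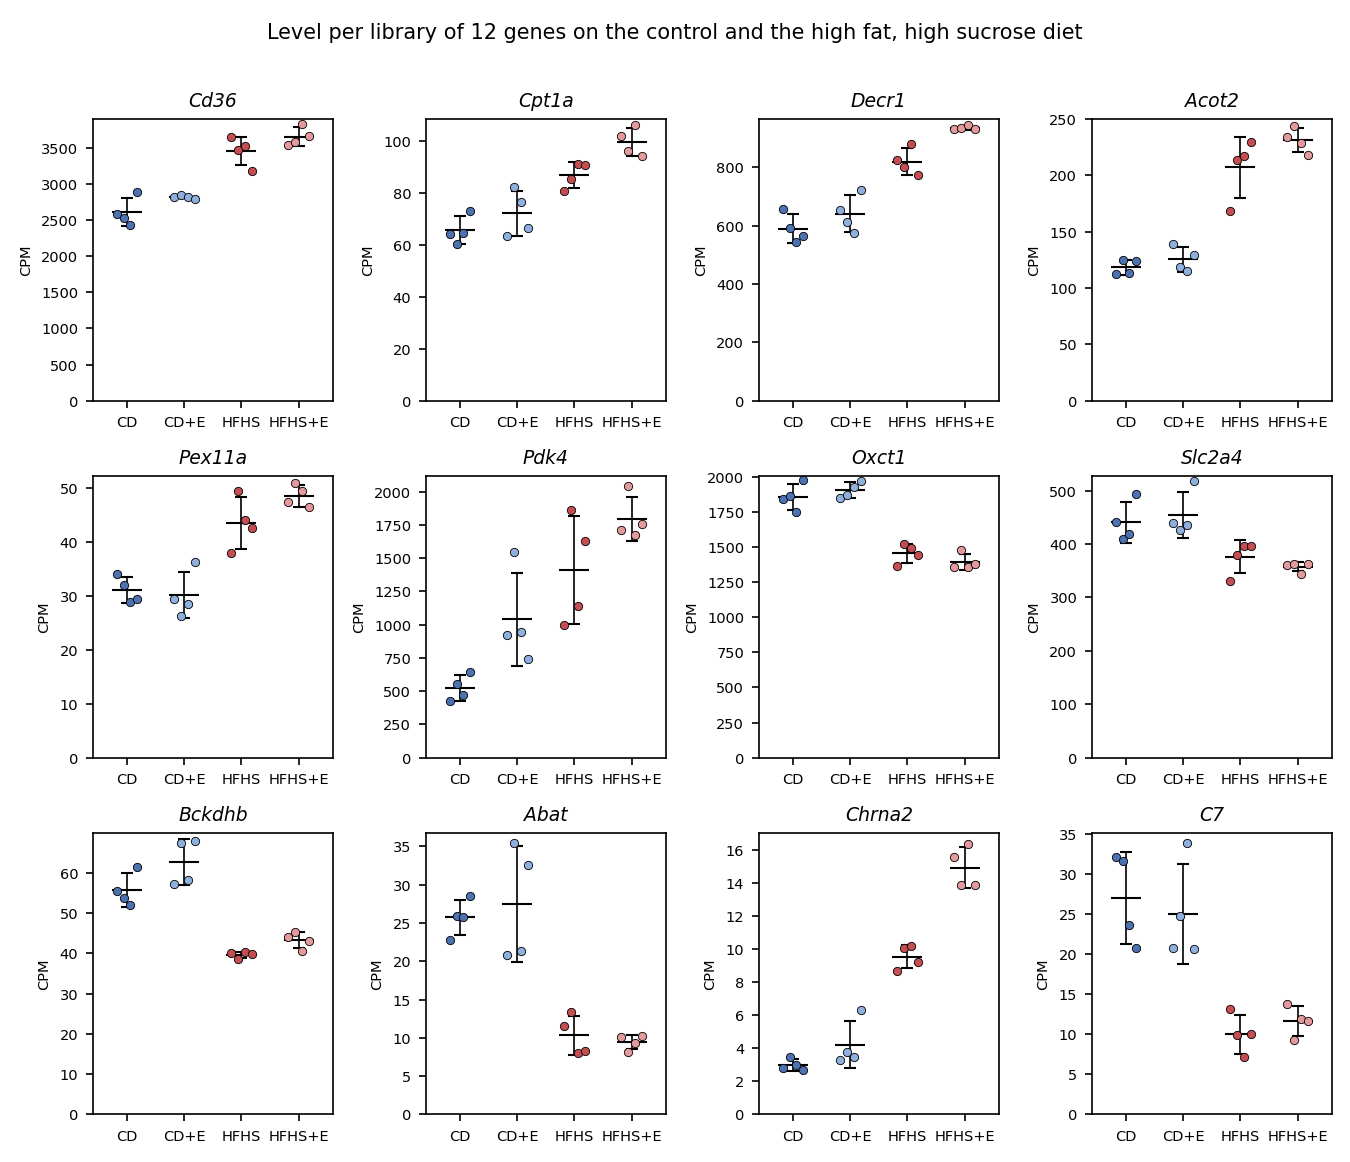
Level of 12 genes in each library (points, CPM from 0), by group, with the mean and SD of 4 libraries (bars); E is ertugliflozin. In 10 of the 12 panels every HFHS library lies to 1 side of every CD library, with or without the drug, and in the panels of Cpt1a and Pdk4 the diets overlap.

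Peroxisomes, which shorten very long chains, showed the same direction in fewer genes: 6 of 20 rose and none fell, with a median of 0.12. Pex11a, a membrane protein of dividing peroxisomes, was at 26.3, 29.4 and 36.2 CPM on CD and 37.8, 46.8 and 51.0 on HFHS, 0.59 ± 0.06 (edgeR adjusted p = 1.45e-05), without overlap. Hsd17b4, the bifunctional enzyme of the pathway, rose by 0.25 ± 0.04. Cat, the catalase that destroys the hydrogen peroxide these oxidases make, went from 284, 306 and 337 to 347, 414 and 441 CPM, 0.40 ± 0.05 (edgeR adjusted p = 3.88e-05), and every HFHS value was above every CD value.

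Acyl-CoA thioesterases split acyl-CoA back into free fatty acid and coenzyme A. Of 13 tested list members, 5 rose and 1 fell, and the median was −0.04, since the rises sat in 4 neighbouring genes and in Dbi, the acyl-CoA binding protein (0.47 ± 0.05). On chromosome 12 (GRCm38, plus strand) Acot2 lies at 83987861 to 83993873, Acot1 at 84009490 to 84018371, Acot4 at 84038379 to 84048601, Acot3 at 84052144 to 84060402 and Acot6 at 84100654 to 84111349. Because these neighbours moved together, the bases just before the start of the 4 that rose are shown, from RefSeq (GRCm38.p6, plus strand), with capitals marking CCAAT (or ATTGG, its other strand) and a PPAR-type repeat.
Acot2: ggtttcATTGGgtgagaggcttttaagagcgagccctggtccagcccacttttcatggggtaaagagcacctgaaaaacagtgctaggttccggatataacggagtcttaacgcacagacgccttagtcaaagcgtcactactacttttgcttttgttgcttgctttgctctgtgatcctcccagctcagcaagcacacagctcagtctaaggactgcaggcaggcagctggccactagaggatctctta
Acot1: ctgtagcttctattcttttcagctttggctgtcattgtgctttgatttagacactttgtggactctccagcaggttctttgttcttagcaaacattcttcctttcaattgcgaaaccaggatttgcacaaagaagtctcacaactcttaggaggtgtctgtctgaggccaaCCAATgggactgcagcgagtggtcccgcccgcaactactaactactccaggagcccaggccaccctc
Acot4: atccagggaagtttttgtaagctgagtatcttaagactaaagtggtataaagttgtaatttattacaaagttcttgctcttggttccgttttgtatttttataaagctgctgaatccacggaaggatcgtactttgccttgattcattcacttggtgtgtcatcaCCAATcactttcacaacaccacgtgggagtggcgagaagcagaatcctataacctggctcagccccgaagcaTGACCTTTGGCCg
Acot3: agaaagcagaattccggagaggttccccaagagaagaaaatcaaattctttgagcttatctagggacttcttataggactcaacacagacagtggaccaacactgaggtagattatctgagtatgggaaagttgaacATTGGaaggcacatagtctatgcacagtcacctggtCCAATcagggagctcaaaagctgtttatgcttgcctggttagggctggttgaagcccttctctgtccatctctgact
The windows are chr12:83987611-83987860 for Acot2, chr12:84009252-84009489 for Acot1, chr12:84038129-84038378 for Acot4 and chr12:84051894-84052143 for Acot3. Each holds CCAAT on at least 1 strand, and Acot3 on both, as at least 1 strand does in 33.8% of 32851 mouse promoter windows of 250 bases. A direct repeat with a spacer of 1 base, the kind of site PPAR and RXR bind, was searched on both strands as AGGNCANAGGNCA, found in 0.338% of all windows, and in a looser form as GNNCANAGGNCA, found in 1.82%; the looser search finds every match of the stricter one as well. The strict form was in none of these 4 windows, and the loose form was in that of Acot4, at TGACCTTTGGCC. Among the 28 windows of 25 PPAR list genes found in the table, none held the strict form and 1, that of Plin5, held the loose form (3.57%). A match is a run of letters and not a binding site, and no match says only that the letters are missing from this short window.

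Acot2, a mitochondrial thioesterase, was at 113, 121 and 139 CPM on CD and 168, 224 and 244 on HFHS, a rise of 0.84 ± 0.06 and the second smallest edgeR adjusted p of all genes (8.60e-08). Its lowest HFHS value, in HFHS untreated 1, was still above the highest CD value. Acot1, the cytosolic form, had 22.3, 25.7 and 27.2 CPM on CD and 30.8, 52.9 and 72.1 on HFHS, 1.06 ± 0.12 (edgeR adjusted p = 0.000105), also without overlap. Acot1 and Acot2 share 17.6% and 21% of their 50-base words with each other, so their counts are not fully separate. The peroxisomal Acot4 rose by 0.72 ± 0.14 and Acot3 by 0.82 ± 0.17, at medians of 5.18 and 2.04 CPM on HFHS. Acot6, the last of the row, was at 4.58, 5.20 and 5.95 CPM on CD and 4.35, 4.72 and 6.32 on HFHS, −0.04 ± 0.09 (edgeR adjusted p = 0.842), with the 2 ranges on top of each other.

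Storage genes changed in both directions. Of 19 lipid droplet genes, 7 rose (36.8%) and 2 fell (10.5%), with a median of 0.06. With valve and atrial scores as covariates 4 rose and 1 fell. Plin2, the general droplet coat protein, was at 75.3, 84.3 and 93.1 CPM on CD and 97.8, 107 and 119 on HFHS, 0.35 ± 0.04 (edgeR adjusted p = 1.63e-05), with no overlap. Plin5, the coat protein that ties droplets to mitochondria in oxidative tissue, rose by 0.42 ± 0.05. Cidea, a droplet fusion protein, rose by 0.47 ± 0.05, and Mgll, which splits the last fatty acid from a monoglyceride, by 0.43 ± 0.06. Plin3 fell from 228, 239.8 and 286 to 177, 190.2 and 212 CPM, −0.34 ± 0.05 (edgeR adjusted p = 0.000203), again without overlap. It thus moved against Plin2 and Plin5. Fitm1, which helps droplets bud from the endoplasmic reticulum in muscle, also fell (−0.24 ± 0.05). Of 7 adipocyte markers, Cidea among them, 2 rose (Cidea, and the glycerol channel gene Aqp7 at 0.39) and none fell. Their median was −0.55, and 0.23 without CD untreated 2 and 3. Plin1, Cfd, Cidec and Pck1, which did not pass, averaged 0.463 to 1.02 CPM and ran from −3.38 to −0.55. The summed level was 68.1 to 84.3 CPM on CD and 91.4 to 107 on HFHS, most of it Cidea and Aqp7, and the part of fat tissue in the droplet genes was not tested. In triglyceride synthesis 3 of 15 rose (20%) and 1 fell (6.67%). Gpam, the mitochondrial enzyme that adds the first acyl chain to glycerol phosphate, went from 241, 273 and 326 to 320.0, 406 and 426 CPM, 0.52 ± 0.05 (edgeR adjusted p = 2.64e-06). Agpat3, which adds the second chain, rose by 0.43 ± 0.05 and Gpat3 by 0.34 ± 0.06. Dgat1 and Dgat2, the last step, were at −0.04 and −0.01.

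Malonyl-CoA, the inhibitor of CPT1, is made by acetyl-CoA carboxylases and removed by malonyl-CoA decarboxylase. Acacb, the carboxylase of muscle mitochondria, rose by 0.28 ± 0.05, while Acaca, the cytosolic isoform that feeds fatty acid synthesis, fell from 8.30, 9.30 and 10.1 to 6.86, 7.33 and 8.26 CPM, −0.32 ± 0.07 (edgeR adjusted p = 0.00449), without overlap but with its call lost under the valve and atrial covariates. Mlycd, the decarboxylase, rose by 0.26 ± 0.04, and Me1, the malic enzyme that supplies NADPH, by 0.40 ± 0.05. In the whole list of fatty acid synthesis and desaturation 4 of 19 rose and 3 fell, and of 23 cholesterol synthesis genes 1 passed, as lower.

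At the pyruvate gate Pdk4, the kinase that switches pyruvate dehydrogenase off, rose. Its level was 426, 695 and 1543 CPM on CD and 1000.1, 1692 and 2039 on HFHS, 1.11 ± 0.17 (edgeR adjusted p = 0.00141). The overlap came from CD ertugliflozin 2, at 1543 CPM, which stood above HFHS untreated 1 and 3, while no other CD library reached the lowest HFHS library. Pdk1, another of these kinases, rose by 0.22 ± 0.04. Pdhb, a subunit of the enzyme itself, fell by 0.18 (SE 0.04, edgeR adjusted p = 0.00353), Mpc1, a subunit of the mitochondrial pyruvate carrier, was at −0.25 ± 0.05 and Pcx, the pyruvate carboxylase that refills the TCA cycle, went from 36.6, 42.2 and 49.4 to 28.9, 33.7 and 35.5 CPM, −0.39 ± 0.06. Both the kinases and the enzyme belong to a list of 15 of which 3 rose and 3 fell.

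Glucose genes leaned lower. Of 28 genes of glycolysis and glucose uptake, 9 fell (32.1%) and 2 rose (7.14%), with a median of −0.07. The 9 became 5 without CD untreated 3, CD ertugliflozin 4, HFHS untreated 4 or HFHS ertugliflozin 2. Slc2a4, the insulin-sensitive transporter GLUT4, was at 409, 438 and 519 CPM on CD and 332, 363 and 397 on HFHS, −0.29 ± 0.05 (edgeR adjusted p = 0.00123), and its 2 ranges did not meet. Slc2a1, the basal transporter GLUT1, went from 13.8, 16.5 and 23.4 to 10.6, 12.7 and 16.1 CPM, −0.46 ± 0.10 (edgeR adjusted p = 0.00608), with overlap. Pfkfb2, which makes the activator of phosphofructokinase in heart, fell by 0.36 (SE 0.05), and Eno3, the muscle enolase, went from 1332, 1461 and 1609 to 972, 1154 and 1202 CPM, −0.38 ± 0.05 (edgeR adjusted p = 5.04e-05). Ldhb, the lactate dehydrogenase of oxidative muscle, was at −0.25 ± 0.04. Pfkl, the liver type of phosphofructokinase, rose by 0.30 ± 0.05. In insulin signalling 5 of 33 rose (15.2%) and 1, Akt1 (−0.27 ± 0.05), fell (3.03%), against 6.59% and 5.01% over all tested genes. The 5 rises became 3 without CD untreated 2 or 3, CD ertugliflozin 3, HFHS untreated 2, 3 or 4, or any HFHS ertugliflozin library. With the covariates they were 2.

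Ketone body genes changed in both directions. Oxct1, the transferase that commits ketone bodies to oxidation, fell from 1753, 1869.8 and 1979 to 1357, 1412 and 1522 CPM, −0.40 ± 0.04 (edgeR adjusted p = 2.34e-06), without overlap and in both drug arms (−0.35 ± 0.05 untreated, −0.45 ± 0.05 with ertugliflozin). Slc16a7, a monocarboxylate transporter, fell from 10.7, 14.6 and 17.6 to 6.51, 8.15 and 10.7 CPM, −0.77 ± 0.12. Acat1, the thiolase shared by ketone and isoleucine use, rose by 0.22 ± 0.03. Bdh1, the hydroxybutyrate dehydrogenase, was at −0.65 ± 0.20 and missed the threshold (edgeR adjusted p = 0.0592); HFHS untreated 2, at 216 CPM, stood far above the other HFHS libraries, and without it the value was −0.85 and passed.

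Branched-chain amino acid breakdown was lower at several steps. Of 25 tested genes 10 fell and 1, Acat1, rose, with a median of −0.09; the rate over all genes was 5.01% lower. Bckdhb, part of the complex that irreversibly decarboxylates the branched-chain keto acids, was at 52.1, 57.8 and 67.9 CPM on CD and 38.6, 40.4 and 45.2 on HFHS, −0.51 ± 0.05 (edgeR adjusted p = 2.55e-06), and its 2 ranges were well apart. Acadsb, the next dehydrogenase on the isoleucine branch, fell from 206, 226 and 249.6 to 175, 189.6 and 194 CPM, −0.28 ± 0.04 (edgeR adjusted p = 8.52e-05). Abat, placed in the list for its part in valine breakdown and better known as the transaminase of GABA, showed the largest fall of the list: 20.8, 25.8 and 35.4 CPM on CD and 8.07, 9.68 and 13.4 on HFHS, −1.42 ± 0.13 (edgeR adjusted p = 1.45e-05). No HFHS library reached the lowest CD library.

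One-carbon metabolism held a small group that rose. In a list of mitochondrial folate and serine genes and ATF4 targets, 5 of 25 rose and none fell (median 0.16); the 5 became 2 without CD untreated 2 and 3 (median 0.19) and 3 with the covariates (0.047). Mthfd2, the mitochondrial methylene-tetrahydrofolate dehydrogenase, was at 4.00, 5.09 and 7.99 CPM on CD and 8.51, 10.6 and 12.8 on HFHS, 0.97 ± 0.13 (edgeR adjusted p = 0.000138), and Psat1, of serine synthesis, rose by 0.65 ± 0.09; neither overlapped. The transcription factor Atf4 itself was at −0.01. Gnmt, a glycine methyltransferase that disposes of surplus methyl groups, was low throughout and fell from 1.72, 1.82 and 5.64 to 0.605, 1.10 and 1.29 CPM, −1.19 ± 0.24 (edgeR adjusted p = 0.0043).

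Part of the respiratory chain and mitochondrial ribosomal protein genes fell, by small amounts, where the rate over all tested genes was 5.01% lower. None of 37 complex I subunits rose and 8 fell (median −0.09), none of 23 subunits of complexes III and IV rose and 8 fell (−0.11), none of 16 ATP synthase subunits rose and 6 fell (−0.10), and none of 76 mitochondrial ribosomal proteins rose and 20 fell (−0.11). These lists hold nuclear-encoded subunits only, as the count table had no mitochondrially encoded genes. Cytosolic ribosomal proteins had a median of −0.08, with 4 of 75 lower (5.33%), near that rate. With valve and atrial scores as covariates the falls were 4 of complex I, 3 of complexes III and IV, 2 of ATP synthase and 1 cytosolic ribosomal, at medians of −0.10, −0.11, −0.12 and −0.05. Ndufb9, of complex I, was at 494, 536 and 577 CPM on CD and 426, 471 and 497 on HFHS, −0.20 ± 0.04 (edgeR adjusted p = 0.00146), with a narrow overlap. Cox6b1, of complex IV, was at −0.17 ± 0.04 and Atp5g1, of the ATP synthase ring, at −0.20 ± 0.04. Mrps30, of the small mitochondrial ribosomal subunit, went from 44.6, 47.9 and 54.1 to 36.2, 40.1 and 41.8 CPM, −0.30 ± 0.04 (edgeR adjusted p = 0.000255), without overlap. Slc25a4, the heart's ADP/ATP carrier, was at −0.23 ± 0.04. TCA cycle genes had a median of −0.04 and 1 of 23 lower.

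Transcript length moved with these results. Genes that rose had a median longest transcript of 4898 bases and genes that fell one of 2200, against 3120 over all tested genes (GENCODE M21). With genes in 10 bins of equal size by length, the median change was −0.08 in the shortest bin, with 0.948% higher and 7.33% lower, and in the longest it was 0.08, with 19.6% higher and 1.64% lower. Per library, the correlation across genes between a gene's deviation from its mean and its length was −0.153 to 0.0181 on CD and −0.0943 to 0.213 on HFHS, a difference of 0.154 in the mean. An exact two-sided permutation test of diet within drug arms (n = 8 per diet) gave p = 0.00408, where 0.000408 is the smallest possible. The same test for GC content gave an exact p = 0.528, and adjusted over these 2 measures the values were 0.00816 and 0.528. After a correction for length and GC content in each library the bin medians ran from −0.017 to 0.0026 and 1335 genes passed, 710 of them higher. The correction takes out any relation with length in each library, whatever its source. The flat medians were thus fixed in advance, and calls lost under it do not tell where that relation came from. Among all tested subunits and ribosomal proteins, those lower after the correction were 4 of complex I, 2 of complexes III and IV and 1 of ATP synthase. Lower too were 13 mitochondrial and 2 cytosolic ribosomal proteins, and 1 complex I subunit was higher. The PPAR targets that rose were then 26 of 31 and the beta-oxidation genes 18 of 26. RNA integrity values were not used here, and the part of RNA quality in the relation with length was not tested.

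**Figure D3:**
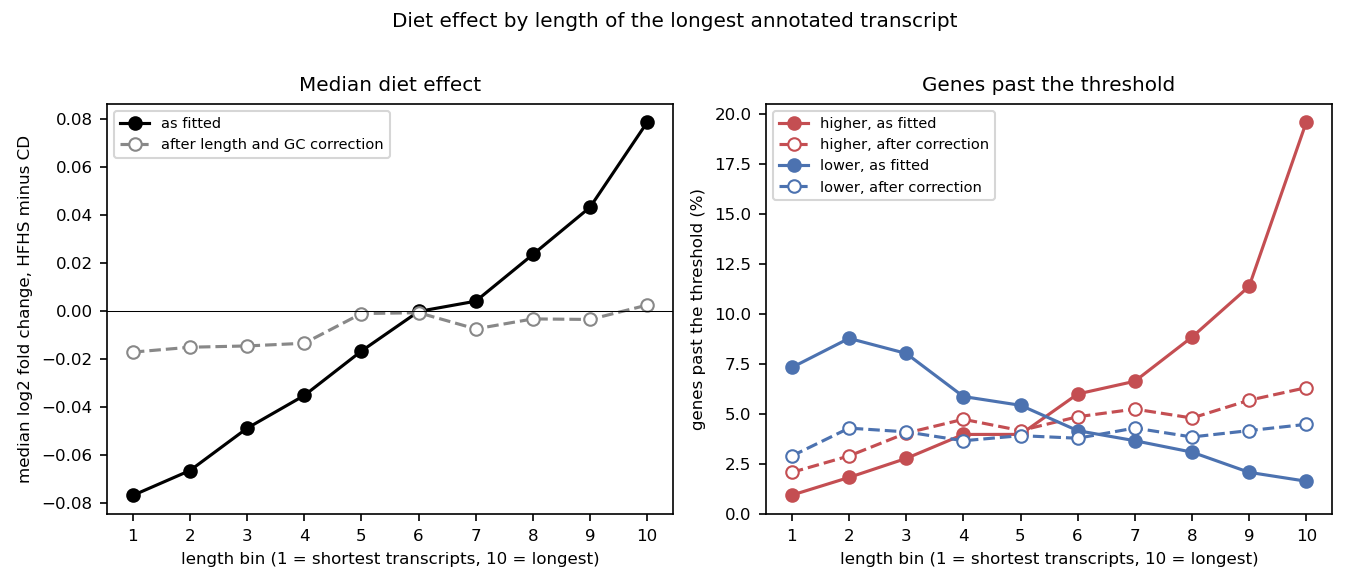
Tested genes in 10 bins of equal size by the length of their longest annotated transcript (1 is shortest), with the median log2 fold change, HFHS minus CD, on the left and the percent of genes past the threshold on the right. Solid lines are the values as fitted, which run from −0.08 to 0.08, and dashed lines the values after a correction for length and GC content in each library. The correction flattens the medians by its construction.

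**Figure D4:**
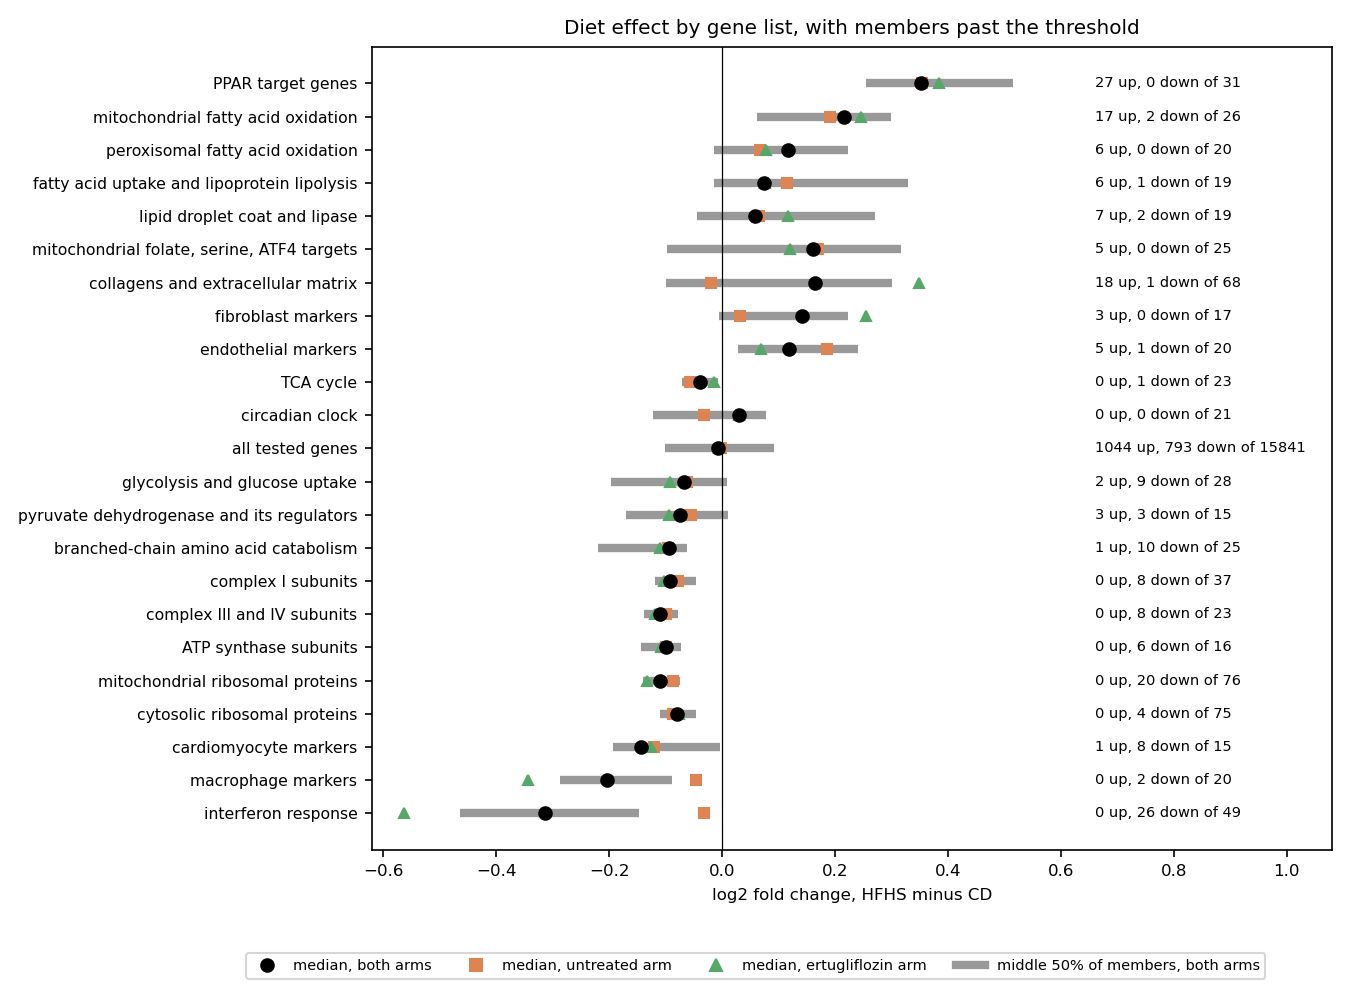
Median log2 fold change, HFHS minus CD, of the gene lists plotted, over both drug arms (black), in untreated mice (squares) and in mice on ertugliflozin (triangles), with the middle 50% of members as a grey bar and the members past the threshold on the right. Among the lists plotted, PPAR targets (0.35) and interferon genes (−0.31) lie farthest from all tested genes (−0.01).

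Outside metabolism, the smallest edgeR adjusted p of all genes was that of Chrna2, a nicotinic acetylcholine receptor subunit (4.73e-08). It was at 2.68, 3.39 and 6.32 CPM on CD and 8.70, 12.0 and 16.4 on HFHS, a rise of 1.74 ± 0.11, with the lowest HFHS value above the highest CD value, which was that of CD ertugliflozin 4. Tfrc, the transferrin receptor that imports iron, went from 37.8, 74.4 and 122 to 153, 176 and 222 CPM, 1.30 ± 0.20 (edgeR adjusted p = 0.00162), also without overlap. Egln3, a prolyl hydroxylase of the hypoxia pathway, rose from 88.6, 106 and 141 to 149, 189 and 229 CPM, 0.86 ± 0.08 (edgeR adjusted p = 2.20e-05). In its list 6 of 24 rose (25%) and 1 fell (4.17%), against 6.59% and 5.01% over all tested genes. Without CD untreated 2 and 3 the 6 became 3, and with valve and atrial scores as covariates 2. Among the 10 smallest adjusted p were also Tshz1, a zinc finger transcription factor (0.54 ± 0.04), Fbxo21, a ubiquitin ligase subunit (0.47 ± 0.04), Ephx2, the soluble epoxide hydrolase (0.51 ± 0.05), and Hsdl2, a hydroxysteroid dehydrogenase-like protein (0.33 ± 0.03). In none of these 4 did the diets overlap.

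Other large rises were in genes of low level. Edn3, endothelin 3, was at 2.71, 5.15 and 8.17 CPM on CD and 7.05, 9.90 and 15.3 on HFHS, 1.02 ± 0.20 (edgeR adjusted p = 0.00437), with overlap. The potassium channel gene Kcnj14 rose by 1.11 ± 0.22, the cadherin gene Dchs2 by 1.04 ± 0.22 and the dynein gene Dnah6 by 0.98 ± 0.25, all with medians under 4 CPM on HFHS; Kcnj14 and Dnah6 lost their calls with valve and atrial scores as covariates. Among falls, C7, a late complement component, went from 20.6, 24.3 and 33.9 CPM on CD to 7.16, 10.8 and 13.8 on HFHS, −1.26 ± 0.15 (edgeR adjusted p = 0.000116), without overlap. Sv2c, a synaptic vesicle protein, was at −1.44 ± 0.27, the fibrillar collagen gene Col11a2 at −1.19 ± 0.19 and the collagenase gene Mmp13 at −0.96 ± 0.23, each under 4 CPM at the CD median. Aox3, an aldehyde oxidase, went from 0.783, 1.53 and 2.93 to 0.506, 0.795 and 1.23 CPM (edgeR adjusted p = 0.0145), and like Mmp13 it lost its call under the same covariates.

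Genes of excitation changed in both directions: of 36 ventricular ion channel and pump genes 7 rose and 4 fell, and the 7 became 4 without CD untreated 2 and 3, with the covariates, or after the length and GC correction. Scn4b, an auxiliary subunit of the cardiac sodium channel, was at 77.5, 107 and 160.0 CPM on CD and 157, 204 and 268 on HFHS, 0.94 ± 0.14 (edgeR adjusted p = 0.00132). A single CD library was above the lowest HFHS library. Kcnk2, the mechanosensitive potassium channel TREK-1, rose from 2.92, 3.49 and 4.45 to 4.91, 5.67 and 6.52 CPM, 0.67 ± 0.10 (edgeR adjusted p = 0.000356). Kcnip2, the subunit that shapes the transient outward current, went from 149.9, 182 and 200.3 to 129, 140.2 and 170.5 CPM, −0.32 ± 0.06. Slc5a1, the gene of SGLT1, was near 1 CPM and at −0.61 ± 0.25 (edgeR adjusted p = 0.124).

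Among contractile genes more fell than rose, and most did not pass. Of 35 sarcomere genes 7 fell (20%) and 2 rose (5.71%, near the 6.59% over all tested genes). Of 15 cardiomyocyte markers 8 fell (53.3%) and 1, Fabp3, rose (6.67%), with a median of −0.14. With valve and atrial scores as covariates the 7 became 4 and the 8 became 5, with the marker median still at −0.14. Myl2, the ventricular regulatory light chain, was at 7185, 7737 and 8308 CPM on CD and 5929, 6737 and 7095 on HFHS, −0.21 ± 0.04 (edgeR adjusted p = 0.00312), without overlap, though the call ended with valve and atrial covariates. Myl3, the essential light chain, was at −0.19 ± 0.03, the troponins Tnnc1 and Tnni3 at −0.20 ± 0.03 and −0.21 ± 0.05, and Ckm, the muscle creatine kinase, at −0.28 ± 0.04. S100a1, a calcium sensor of the sarcoplasmic reticulum, went from 517, 548 and 587 to 404, 461 and 498 CPM, −0.26 ± 0.04 (edgeR adjusted p = 0.000375). Myh6, the main adult myosin heavy chain, did not pass (−0.08 ± 0.05, edgeR adjusted p = 0.367), but after the length and GC correction it was at −0.16 and did (edgeR adjusted p = 0.0415). Of 25 fetal programme and hypertrophy markers 3 rose (12%) and 2 fell (8%), against 6.59% and 5.01% over all tested genes. Without CD untreated 2 and 3 these were 4 and 1, with the list median moving from 0.09 to 0.22. The preset Nppa, Nppb and Myh7 did not pass. Nppa was at 53.5, 106 and 358 CPM on CD and 57.0, 76.3 and 94.0 on HFHS (−0.86 ± 0.31, edgeR adjusted p = 0.101), Nppb at −0.03 ± 0.35 and Myh7 at 0.43 ± 0.34. The highest Nppa value was in CD untreated 1, the library with the highest sum of atrial markers, and Nppa was at −0.47 with the covariates. Nppa is itself a member of the atrial list, so neither value is independent of it and no conclusion is drawn from them. DESeq2 called Nppa at −0.86 (adjusted p = 0.0394).

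Of 68 collagen and matrix genes 18 rose (26.5%, against 6.59% over all tested genes) and 1, Col11a2, fell, with a median of 0.16. The list median was −0.02 in untreated mice and 0.35 in mice on ertugliflozin, a difference that was not tested for the list, and no member passed the test of a difference between arms. Hspg2, the proteoglycan perlecan, was at 672, 721 and 802 CPM on CD and 847, 936 and 975 on HFHS, 0.33 ± 0.04 (edgeR adjusted p = 0.000105), Col4a2, of type IV collagen, went from 408, 488 and 559.7 to 583, 653 and 763 CPM, 0.43 ± 0.07 (edgeR adjusted p = 0.000578), and Lamc1, a laminin chain, rose by 0.26 ± 0.04. The diets did not overlap in any of these 3. Fibrillar collagens were more variable: Col1a1 was at 88.6, 129 and 209 CPM on CD and 119, 160.3 and 188 on HFHS (0.17 ± 0.15, edgeR adjusted p = 0.516), Col3a1 at 0.33 ± 0.15 and Postn, periostin of activated fibroblasts, at 0.15 ± 0.25, none past the threshold. After the length and GC correction 13 of the 68 had risen, with Hspg2 at 0.19 and Lamc1 at 0.17, both still past the threshold. Without CD untreated 2 and 3, 28 of the 68 had risen.

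Among markers of the cells that make these genes, 5 of 20 for endothelium rose (25%) and 1 fell (5%, median 0.12). For fibroblasts 3 of 17 rose (17.6%, median 0.14), and for smooth muscle and pericytes 3 of 15 rose (20%, median 0.09). Without CD untreated 2 and 3, 7 fibroblast markers rose (median 0.27). With the covariates 3 endothelial markers rose (0.10) and 1 of smooth muscle and pericytes (−0.0031). Btnl9, a butyrophilin-like gene of capillary endothelium, was at 78.5, 99.2 and 114 CPM on CD and 136, 158 and 184 on HFHS, 0.73 ± 0.07 (edgeR adjusted p = 4.23e-06), without overlap. Kdr, the receptor VEGFR2, rose by 0.34 ± 0.05 and Cdh5, VE-cadherin, by 0.28 ± 0.05, while Aqp1, a water channel of the same cells, fell from 355, 436 and 564 to 259, 302 and 458 CPM, −0.48 ± 0.12 (edgeR adjusted p = 0.0226), a call that ended with the replicate block (−0.48, edgeR adjusted p = 0.0557) and with the covariates (−0.51, edgeR adjusted p = 0.128). Pdgfra, of fibroblasts, rose by 0.30 ± 0.05 and Notch3, of mural cells, by 0.27 ± 0.05. Summed marker levels were 3271 to 3925 CPM on CD and 3588 to 4646 on HFHS for endothelium, and 3136 to 4808 and 3848 to 4317 for fibroblasts, so both overlapped between diets. Their part in the matrix result was not tested.

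Interferon-response genes were lower on HFHS, and 3 of them differed in their diet effect between the drug arms. Of 49 tested genes 26 fell and none rose, with a median of −0.31 over both arms, −0.03 in untreated mice and −0.56 in mice on ertugliflozin. The 26 became 17 without CD untreated 2 and 3 and 14 with valve and atrial scores as covariates, at medians of −0.26 and −0.28. In the test of a difference between the diet effects of the 2 arms, 3 of 15841 genes passed (0.0189%), and all 3 belong to this list. Iigp1, an interferon-induced GTPase that attacks the vacuoles of intracellular parasites, was at 53.4, 45.6, 53.7 and 45.6 CPM in CD untreated and 51.4, 40.8, 36.6 and 47.1 in HFHS untreated. With ertugliflozin it was at 89.8, 109, 90.2 and 73.2 CPM on CD and 35.9, 36.1, 30.1 and 29.2 on HFHS. The drug-arm groups were thus wholly apart and the untreated groups overlapped: the diet effect was −0.17 ± 0.12 untreated and −1.46 ± 0.12 with ertugliflozin, a difference of −1.29 ± 0.17 (edgeR adjusted p = 0.0219).

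Igtp, another GTPase of this family, had diet effects of −0.15 ± 0.12 untreated and −1.28 ± 0.12 with ertugliflozin, a difference of −1.13 ± 0.17, and Tgtp2 had −0.17 ± 0.15 and −1.55 ± 0.15, a difference of −1.38 ± 0.22 (edgeR adjusted p = 0.0219 for both). Tgtp2 shares 89.8% of its 50-base words with Tgtp1, so its counts cannot be assigned with certainty. The next smallest p in that test belonged to Tap1, the peptide transporter of antigen presentation (−0.98 ± 0.17, edgeR adjusted p = 0.0809), and Gbp3, a guanylate-binding protein (−1.08 ± 0.19, 0.12). Other members passed for the mean of both arms without a difference between arms that passed. Nlrc5, the activator of MHC class I genes, went from 8.40, 10.3 and 19.0 to 4.70, 6.00 and 8.54 CPM, −0.95 ± 0.12 (edgeR adjusted p = 8.52e-05). Its diet effect was −0.40 ± 0.17 untreated (edgeR adjusted p = 0.244) and −1.50 ± 0.17 with ertugliflozin. Gbp6 went from 19.5, 23.8 and 35.5 to 11.5, 13.5 and 17.6 CPM, −0.96 ± 0.15, without overlap, and was at −0.76 ± 0.21 in untreated mice. No gene passed the test of the difference without CD untreated 1, 2 or 4, without HFHS untreated 1, 2 or 4, without HFHS ertugliflozin 2, 3 or 4, without CD untreated 2 and 3 together, or with the covariates; 676 genes had an unadjusted p under 0.05 in the full edgeR fit, and DESeq2 passed 19.

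**Figure D5:**
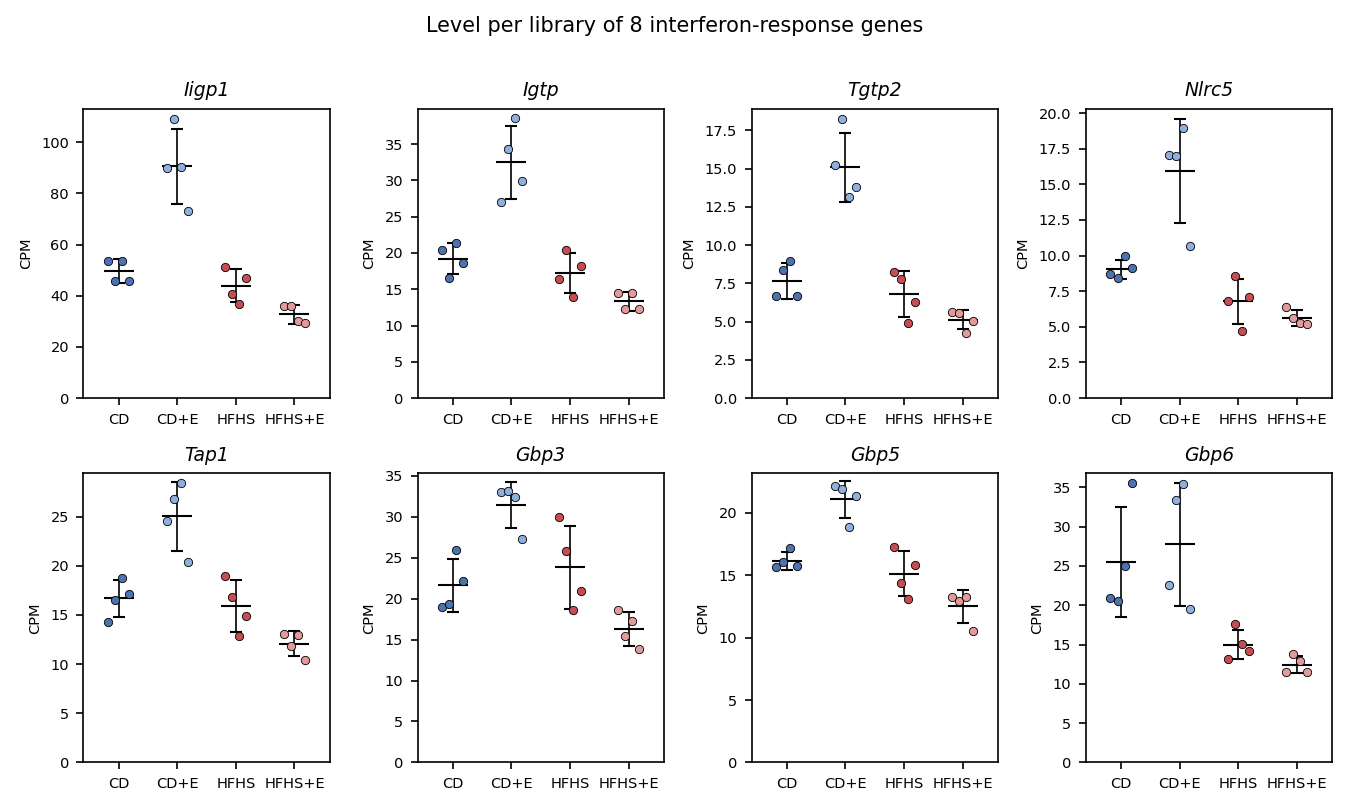
Level of 8 interferon-response genes in each library (points, CPM from 0), by group, with the mean and SD of 4 libraries; E is ertugliflozin. In 6 of the 8 panels, all but Gbp3 and Gbp6, the 4 CD libraries on ertugliflozin lie above the other 12, and the 2 untreated groups overlap in all panels but that of Gbp6.

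Of 20 macrophage markers 2 fell, where the rate over all tested genes was 5.01%, and none rose, with a median of −0.20, and the median was −0.05 untreated and −0.34 with ertugliflozin. Aif1 went from 2.12, 2.98 and 4.13 to 1.86, 2.02 and 2.88 CPM, −0.42 ± 0.11 (edgeR adjusted p = 0.0197), and Lyz2, lysozyme, from 130.3, 154 and 215 to 107, 119 and 144 CPM, −0.37 ± 0.11 (edgeR adjusted p = 0.037); both ranges overlapped. No marker passed without CD untreated 2 and 3, with the covariates or after the length and GC correction, where the list medians were −0.12, −0.10 and −0.16. The part of macrophage content in the interferon result was not tested.

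None of 21 clock genes and none of 24 immediate early genes passed (edgeR, over all genes), and the clock genes Arntl (0.05 ± 0.30) and Dbp (−0.17 ± 0.61) had errors larger than their values. Valve and cartilage markers had a median of −1.01, with −2.88 in untreated mice and 0.12 on ertugliflozin, with 1 of 13 past the threshold (Chadl, −0.47), and atrial markers had a median of −0.25 with 0 of 12.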

How the data were processed

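Poly(A)-selected, strand-marked RNA-seq libraries of left ventricle from 16 mice were used. The authors deposited whole-number read counts for 53764 Ensembl genes, not normalized, and a second table of regularized log2 values, which served as an alternative input only. The submitters' processing notes name build mm10, DESeq2 1.22.1, STAR 2.6.0c, FastQC 0.11.7 and featureCounts from Subread 1.6.2. The sources used here do not give the annotation, the strand setting or the handling of multiply mapped reads. GENCODE M21 (GRCm38) supplied symbols, for 53669 rows of 53764, and coordinates.

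Low genes were removed with filterByExpr of edgeR 4.0.16 (R 4.3.3) on the 4 groups, libraries were scaled by TMM, and a robust quasi-likelihood model was fitted over 16 libraries, with p-values adjusted by Benjamini-Hochberg over 15841 genes and a threshold of 0.05. The SE of a log2 fold change is its size over the root of the F statistic. Within groups, the chi-square between 2 libraries was 3.19 to 15.7 for each degree of freedom, so each counted as its own replicate. In simulated counts for 15841 genes, 67 were changed 2-fold, 67 1.5-fold and 66 1.25-fold, fewer than passed for diet in the data. The diet test made 10 false calls. It recovered 92.5% of genes changed 2-fold, 79.1% of those changed 1.5-fold and 56.1% at 1.25-fold. For the difference between arms it made 5 false calls and recovered 71.6%, 41.8% and 4.55%.

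The comparison and the gene lists were chosen with earlier results of these data known. Genes with full values are those past the threshold, at 1 CPM or more on average, that were among the 10 strongest rises, 10 strongest falls or 10 lowest adjusted p, up to 5 from each list, the 5 lowest p of the difference between arms, and 22 preset genes. Other list members are given by log2 fold change only, and results for some genes the rule takes are not reported here. Alternatives were other scaling, filters and tools (DESeq2 1.42.0, limma 3.58.1), a replicate block, leaving out libraries, single arms, valve and atrial scores as covariates, and a lowess correction (span 0.3) for length and GC content.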

Additional observations from a re-analysis of the deposited data

Results flagged for a closer look

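In 3 interferon-induced GTPases the effect of diet differed between the drug arms by the test of that difference: Iigp1 by −1.29, Tgtp2 by −1.38 and Igtp by −1.13 on the log2 scale (ertugliflozin arm minus untreated arm, edgeR adjusted p = 0.0219 for each). In each gene the 4 CD libraries on ertugliflozin were above the other 12.

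A second search looked, in the 8 libraries of each diet, for a highest or lowest value separated from the rest by a gap that is large for the group's range. It covered 129 genes in 2 diets, 258 groups, and picked out 15 (5.81%); chance picks about 1 in 20. HFHS untreated 1 stood apart 4 times: low for Acot2 (168 CPM) and Me1 (127 CPM), and high for Mgll (362 CPM) and Aqp1 (458 CPM). HFHS untreated 2 stood apart 2 times, high for Bdh1 (216 CPM) and Myh7 (944 CPM). Among CD ertugliflozin libraries, replicate 2 was high for Pdk4 (1543 CPM) and Gnmt (5.64 CPM), replicate 4 for Chrna2 (6.32 CPM) and Ephx2 (393 CPM), replicate 3 for Mmp13 (3.00 CPM) and Aif1 (4.13 CPM), and replicate 1 for Cdh5 (336 CPM). CD untreated 4 was high for Plin3 (286 CPM), and HFHS ertugliflozin 1 low for Tnnc1 (1968 CPM). Acot2, Mgll, Gnmt, Chrna2, Ephx2, Plin3 and Tnnc1 still had no overlap between diets.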

How the results depend on the processing

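The count of genes past the threshold for diet was 1837 and stayed within 1.5 times of that under other scaling, filters and tools (1516 with no filter to 2464 with limma-voom) and when 1 library was left out, where it ran from 1367 (without HFHS ertugliflozin 1) to 2536 (without HFHS untreated 1). It was 327 in the untreated arm, 584 in the ertugliflozin arm and 820 with valve and atrial scores as covariates, where the median SE of the 1837 rose from 0.05 to 0.06. Those tested kept their sign under every alternative (1813 of the 1837 were tested at a minimum of 1 CPM in 4 libraries) but the single arms, where 1829 and 1836 did; the libraries are the same, so this is no separate support. For the difference between arms, 3 genes became 6 with no filter, 19 with DESeq2, 0 without CD untreated replicates 2 and 3, 0 with the covariates and 0 to 14 with 1 library left out.

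Replicate numbers were not treated as pairs in the main fit. Over 24 same-numbered pairs the correlation of deviations was −0.24 to 0.31, and 6 were over 0.1. The median was 0.056, against −0.023 for pairs with different numbers, and 8 of 16 libraries were closest to their own number. Whether these values exceed those of unrelated libraries was not tested. With the replicate block 1796 genes passed for diet and 2 for the difference.

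Among genes named in the text, signs that reversed belonged to genes that had not passed, except Gbp3: in the untreated arm Myh7 was at −0.016, Col1a1 at −0.14, Postn at −0.41 and Gbp3 at 0.14. Nppb was at 0.012 in the ertugliflozin arm, 0.23 without CD untreated replicates 2 and 3, 0.027 after the length and GC correction and −0.20 to 0.10 with 1 library left out. Arntl was at −0.035 with the covariates and −0.070 to 0.28 with 1 library left out, Dbp at 0.051 by limma-voom and −0.58 to 0.39 with 1 left out, and Acot6 at 0.012 with the covariates and −0.083 to 0.0016 with 1 left out.

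In lists of small changes the counts past the threshold depended on which library was left out. With any 1 library left out the median ran from −0.11 to −0.07 for complex I and −0.13 to −0.09 for complexes III and IV. For ATP synthase it ran from −0.13 to −0.09, and for cytosolic ribosomal proteins from −0.12 to −0.05. Without HFHS untreated 1, 19 complex I subunits, 15 of complexes III and IV and 20 cytosolic ribosomal proteins had fallen. The count for complex I was 4 without CD untreated 1 or 4, CD ertugliflozin 4, HFHS untreated 2 or 4, or HFHS ertugliflozin 1 or 3. For complexes III and IV it was 4 or 5 without CD untreated 1, HFHS untreated 2 or 4, or HFHS ertugliflozin 1 or 3, and for ATP synthase 3 without the same libraries or CD untreated 4. Upper-quartile scaling raised the count of mitochondrial ribosomal proteins from 20 to 34. In the simulated counts the diet test recovered 56.1% of genes changed 1.25-fold. Smaller changes were not simulated, so the share of them that is missed is not known.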
